A study of Mus musculus with 10 samples.

Results

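The genes Lsm12, Kbtbd4, Dusp3 and Uck1, make up the set described here. They are 4 of 37991 Ensembl gene identifiers in the deposited expression table, whose unit is FPKM (fragments scaled by gene model length and by library depth), and 4 of the 12054 genes tested. They were selected on their IL-17A difference: lower after IL-17A in Bcl10-/- keratinocytes, with no such difference in Bcl10+/- keratinocytes. The values that chose them are therefore descriptions and carry no support of their own. RNA was sequenced from primary murine keratinocytes, the main epithelial cell of the epidermis, taken from skin of pups at postnatal day 4-5 and carrying the allele Bcl10tm1Mak. The groups were Bcl10-/- with IL-17A (2 libraries), Bcl10-/- unstimulated (2), Bcl10+/- with IL-17A (3) and Bcl10+/- unstimulated (3). Treated wells received recombinant mouse IL-17A at 200 ng/mL for 5 h. All cells grew on collagen in Keratinocyte Serum-free Medium with 0.05 mM CaCl2. Every group thus carries at least 1 mutant allele, with no wild type among them. A treated and an unstimulated library that share genotype and replicate number form a culture. Whether cultures came from separate animals is not in the labels, so p-values reflect only the scatter among these libraries, and that scatter may be technical.

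The 4 genes belong to unrelated pathways. LSM12 is an RNA-binding protein of the LSm family, which in human cells is known as a partner of ataxin-2 and as a receptor component for NAADP-evoked calcium release. KBTBD4 is a BTB-Kelch protein that brings substrates to the CUL3 ubiquitin ligase; in human cells these can include the CoREST chromatin complex. DUSP3, also called VHR, is a small dual-specificity phosphatase that removes phosphates from the MAP kinases ERK and JNK. UCK1 phosphorylates uridine and cytidine, the entry step of pyrimidine nucleotide salvage. BCL10 itself joins CARD proteins to MALT1 upstream of NF-kB, and IL-17A drives antimicrobial and inflammatory genes in epidermis.

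On GRCm38, the genes lie on 2 chromosomes. Lsm12 (ENSMUSG00000020922) lies on chromosome 11 from 102162497 to 102185296 on the minus strand. Dusp3 (ENSMUSG00000003518) lies on the same chromosome and strand from 101971143 to 101987013, and 175483 bp separate it from Lsm12. Kbtbd4 (ENSMUSG00000005505) lies on chromosome 2 from 90904740 to 90911626 on the plus strand. Uck1 (ENSMUSG00000002550) lies on chromosome 2 from 32255002 to 32260159 on the minus strand, 58.6 Mb from Kbtbd4. All 4 are protein-coding.

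Promoter sequence from RefSeq (GRCm38.p6) was held for 3 of the 4 genes, Kbtbd4, Dusp3 and Uck1. Stretches upstream of an annotated start site and outside annotated exons are shown because the genes share the low treated Bcl10-/- level that chose them. Capitals mark GC boxes (GGGCGG on either strand). The Kbtbd4 stretch (chr2:90904910-90905001, plus strand) ends at a start site inside the gene model. The stretch before the other Kbtbd4 start site (chr2:90904490-90904583) held no GC box and is not shown. The Dusp3 stretch (chr11:101984800-101984919, minus strand) ends 8 bases before its start site. The Uck1 stretch (chr2:32260160-32260279, minus strand) ends 54 bases before the more upstream of its 2 start sites.
Kbtbd4: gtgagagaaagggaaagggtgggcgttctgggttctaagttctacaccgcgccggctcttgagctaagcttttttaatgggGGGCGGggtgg
Dusp3: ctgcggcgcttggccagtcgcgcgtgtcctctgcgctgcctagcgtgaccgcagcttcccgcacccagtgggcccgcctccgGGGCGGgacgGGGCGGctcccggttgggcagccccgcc
Uck1: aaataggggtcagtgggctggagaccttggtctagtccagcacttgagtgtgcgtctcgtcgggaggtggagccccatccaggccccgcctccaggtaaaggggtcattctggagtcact
In windows of 250 bases, GC boxes numbered 3 before Dusp3, 2 before the Kbtbd4 start site shown, 0 before the other Kbtbd4 start site and 0 before both Uck1 start sites. Of 32817 RefSeq promoter windows of that length, 32.7% held the motif on either strand. The same windows were searched on both strands for 6 further motifs. CCGGAAG (in 6.91% of all windows) was found before 1 of 2 start sites of Kbtbd4 and of Uck1, and CCAAT (33.8%) before Dusp3. The NF-kB motif (7.25%), TGANTCA (6.75%), TATAAA (12.4%) and CACGTG (6.02%) were not found in these windows. GC boxes were the only searched motif in the printed stretches, so no match there overlaps another motif, and matches describe letters only.

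Some facts of the libraries bear on every value below. The estimated depth was 15940000 to 50400000 fragments per library, the highest being the treated library of Bcl10-/- culture 1. Krt5, the basal keratin, stood at 4430 to 6426 FPKM throughout, and Sprr2e, a cornified envelope gene, was higher with IL-17A in 5 of 5 cultures. Bcl10 was 16.4 and 16.6 FPKM in IL-17A-treated Bcl10-/- libraries and 0.969 and 16.998 FPKM in unstimulated ones. The libraries labelled Bcl10+/- culture 1 had 16.3 FPKM with IL-17A and 18.0 FPKM unstimulated, against 59.5 to 72.3 FPKM in the other two Bcl10+/- cultures, which goes against the label. Malt1, its signalling partner, was likewise 5.04 and 4.67 FPKM with IL-17A and unstimulated in that culture, 4.62 to 5.26 FPKM in Bcl10-/- libraries and 2.49 to 2.65 FPKM in Bcl10+/- cultures 2 and 3. Directions between genotypes therefore rest on the labels, and the genotype test is given with and without that culture. The unstimulated library of Bcl10-/- culture 1 had 12.6% of all FPKM in its 10 highest genes, against 8.21% to 8.66% in the others. Library numbers 1 to 14 cover both Bcl10-/- cultures and Bcl10+/- culture 1, and 33 to 38 cover Bcl10+/- cultures 2 and 3.

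Lsm12 was the most abundant of the 4 genes and had the largest IL-17A difference among them in Bcl10-/- cells. It stood at 11.3 and 12.4 FPKM in the IL-17A-treated Bcl10-/- libraries of cultures 1 and 2, against 30.1 and 31.1 FPKM unstimulated. In Bcl10+/- cultures 1, 2 and 3 it was 31.6, 25.5 and 28.1 FPKM with IL-17A, against 28.3, 27.2 and 28.9 FPKM unstimulated. Both treated Bcl10-/- libraries were far below the other 8, and the treated and unstimulated Bcl10+/- ranges overlapped. The treated level was 37.4% and 39.9% of the unstimulated level in Bcl10-/- cultures 1 and 2, and 112%, 93.6% and 97.1% in Bcl10+/- cultures 1, 2 and 3. Group means were 11.8 ± 0.831 FPKM in treated and 30.6 ± 0.719 FPKM in unstimulated Bcl10-/- cells (SD, n = 2 each), and 28.4 ± 3.07 and 28.1 ± 0.879 FPKM in treated and unstimulated Bcl10+/- cells (SD, n = 3 each).

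Kbtbd4, the CUL3 adaptor, followed the same order at a lower level. It was 2.34 and 2.16 FPKM in treated Bcl10-/- cultures 1 and 2, against 5.14 and 5.20 FPKM unstimulated. Bcl10+/- cultures 1, 2 and 3 had 4.80, 5.29 and 4.73 FPKM with IL-17A, against 4.50, 4.84 and 4.67 FPKM unstimulated. The 2 treated Bcl10-/- libraries again lay apart from the other 8, which spanned less than 1 FPKM. The treated level was 45.6% and 41.5% of the unstimulated level in the Bcl10-/- cultures, and 107%, 109% and 101% in Bcl10+/- cultures 1, 2 and 3. Each Bcl10+/- culture was slightly higher with IL-17A, although the ranges of the treated and unstimulated groups overlapped. Group means were 2.25 ± 0.129 FPKM in treated and 5.17 ± 0.0467 FPKM in unstimulated Bcl10-/- cells (SD, n = 2 each), and 4.94 ± 0.305 and 4.67 ± 0.173 FPKM in treated and unstimulated Bcl10+/- cells (SD, n = 3 each).

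Dusp3, the MAP kinase phosphatase, stood near 5 FPKM in treated Bcl10-/- cells and near or above 10 FPKM elsewhere. It was 4.90 and 5.32 FPKM in treated Bcl10-/- cultures 1 and 2, against 9.70 and 10.2 FPKM unstimulated, or 50.5% and 52.4%. In Bcl10+/- cultures 1, 2 and 3 it was 10.7, 10.2 and 11.98 FPKM with IL-17A, against 10.6, 11.3 and 11.4 FPKM unstimulated. Only the treated Bcl10-/- libraries lay below 9 FPKM among the 10 libraries, and the Bcl10+/- groups overlapped. The means were 5.11 ± 0.300 FPKM in treated and 9.93 ± 0.327 FPKM in unstimulated Bcl10-/- cells (SD, n = 2 each), and 10.98 ± 0.898 and 11.1 ± 0.449 FPKM in treated and unstimulated Bcl10+/- cells (SD, n = 3 each).

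Uck1, the uridine-cytidine kinase, had opposite directions in the genotypes. It was 3.69 and 3.52 FPKM in treated Bcl10-/- cultures 1 and 2, against 6.48 and 7.14 FPKM unstimulated. In Bcl10+/- cultures 1, 2 and 3 it was 6.57, 6.80 and 6.53 FPKM with IL-17A, against 4.00, 5.06 and 4.23 FPKM unstimulated. The treated level was 56.9% and 49.3% of the unstimulated level in the Bcl10-/- cultures, and 164%, 134% and 155% in Bcl10+/- cultures 1, 2 and 3. Within each genotype the treated and unstimulated libraries did not overlap, and in Bcl10-/- cells (2 against 2 libraries) the choice used that contrast. Uck1 averaged 3.602 ± 0.124 FPKM in treated and 6.81 ± 0.462 FPKM in unstimulated Bcl10-/- cells (SD, n = 2 each), and 6.63 ± 0.146 and 4.43 ± 0.556 FPKM in treated and unstimulated Bcl10+/- cells (SD, n = 3 each). All treated Bcl10+/- libraries lay above all unstimulated Bcl10+/- libraries in 1.5% of the 12054 genes tested. Uck1 and Kbtbd4 were lower with IL-17A in both Bcl10-/- cultures and higher in all 3 Bcl10+/- cultures, a sign pattern of 3.19% of tested genes and one that the choice used.

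**Figure D1:**
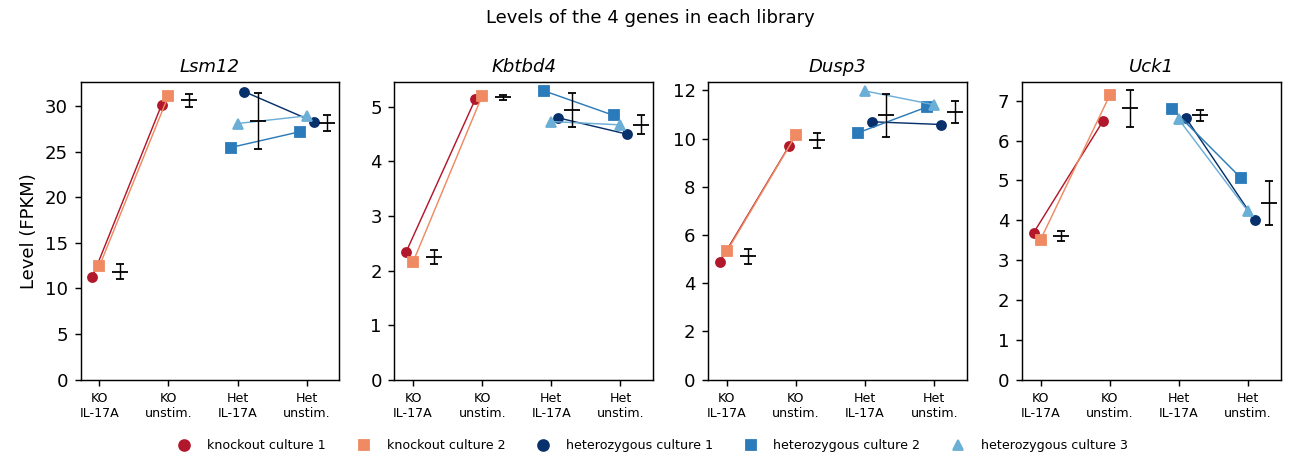
Level of each gene in FPKM (linear axis from 0) in IL-17A-treated and unstimulated knockout (KO, Bcl10-/-) and heterozygous (Het, Bcl10+/-) libraries. Coloured points are libraries, lines join the libraries of a culture, and black marks give the mean ± SD; the 2 treated knockout libraries are lowest in every panel, and Uck1 is also higher in treated than in unstimulated heterozygous libraries.

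Ordered by group mean, treated Bcl10-/- cells were lowest for each gene, and their range touched no other group's. Treated Bcl10-/- libraries were both below all 8 others in 257 of the 12054 tested genes, a background of 2.13%, which the choice of these 4 genes used. The next groups did not separate for Lsm12 and Kbtbd4, where neighbouring ranges overlapped at each step up to unstimulated Bcl10-/- cells. For Dusp3 the unstimulated Bcl10-/- libraries came next, below both Bcl10+/- groups, which overlapped each other. For Uck1 unstimulated Bcl10+/- cells came next, and treated Bcl10+/- and unstimulated Bcl10-/- cells overlapped at the top.

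The unstimulated levels differed in order between genotypes. This is a description only, since the choice of genes used the unstimulated Bcl10-/- libraries, and a high level there favours being chosen. In unstimulated cells the ratio of Bcl10-/- to Bcl10+/- means was 1.09 for Lsm12, 1.11 for Kbtbd4, 0.894 for Dusp3 and 1.54 for Uck1. Both Bcl10-/- libraries were above all 3 Bcl10+/- libraries for 3 of the 4 genes, where 12.3% of tested genes showed that order, and below all 3 for Dusp3, where 15.4% did. In treated cells the same ratio was 0.418, 0.456, 0.466 and 0.543 for Lsm12, Kbtbd4, Dusp3 and Uck1.

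**Figure D2:**
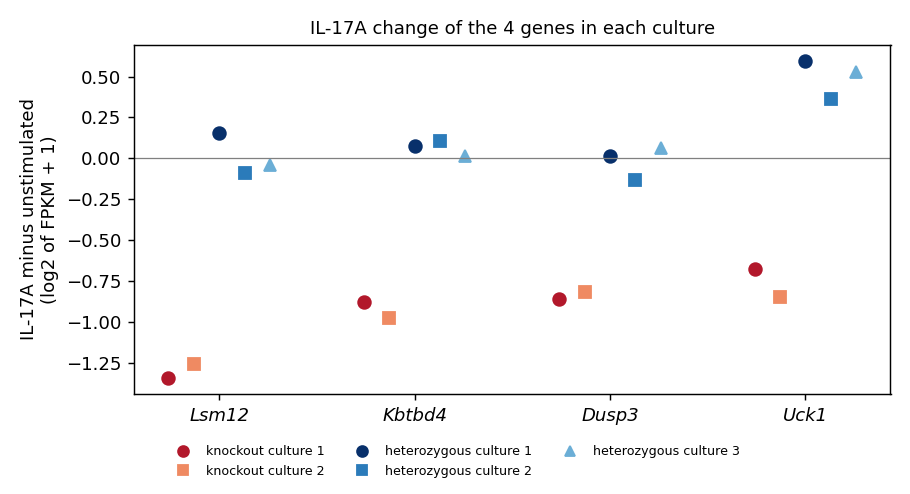
IL-17A-treated minus unstimulated level of each gene in each culture, on the log2(FPKM + 1) scale. Points are cultures; both knockout cultures lie between -0.67 and -1.34, and the heterozygous cultures lie between -0.13 and 0.15 except for Uck1, at 0.36 to 0.60.

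In 1 limma fit over the 10 libraries, on log2(FPKM + 1), the IL-17A change in Bcl10-/- cells that chose the genes was -1.30 for Lsm12 (SE 0.12, adjusted p = 0.0114) and -0.93 for Kbtbd4 (SE 0.10, adjusted p = 0.0312). It was -0.84 for Dusp3 (SE 0.11, adjusted p = 0.0821) and -0.76 for Uck1 (SE 0.12, adjusted p = 0.199). Thus 2 of the 4 passed the threshold of 0.05 downward, which describes the choice alone. Those 2 were the only tested genes to do so, and make up the whole 0.0166% that passed downward. Neither call held with culture as a block (limma adjusted p = 0.0689 for Lsm12 and 0.0918 for Kbtbd4) or without Bcl10+/- culture 3 (0.149 and 0.332 for the same genes). The 4 members ranked 1, 2, 3 and 5 by p among genes lower with IL-17A in Bcl10-/- cells. Just outside the set stood Srsf1, a splicing factor, at rank 4 (-1.46, adjusted p = 0.161), then Snord100, a small nucleolar RNA gene (-1.02, 0.441), and Tmsb4x, an actin-binding thymosin gene (-0.99, 1.0). Srsf1 was 32.1 and 24.1 FPKM in treated Bcl10-/- cultures 1 and 2, against 75.9 and 81.0 FPKM unstimulated. With IL-17A it was at 60.8%, 92.8% and 102% of its unstimulated level in Bcl10+/- cultures 1, 2 and 3.

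In Bcl10+/- cells the changes of Lsm12, Kbtbd4 and Dusp3 lay around 0. The choice also used the lack of a fall there, so these values and intervals are descriptions. The log2 change was 0.01 for Lsm12 (95% interval -0.21 to 0.23), 0.07 for Kbtbd4 (-0.12 to 0.25) and -0.02 for Dusp3 (-0.21 to 0.18). For Uck1 it was 0.50 (0.28 to 0.71), unadjusted for the number of genes. Sprr2e was the 1 gene of 12054 (0.0083%) that passed in that comparison, so Uck1 did not. The difference in log2 change, Bcl10-/- minus Bcl10+/-, was -1.31 for Lsm12 (SE 0.15), -0.99 for Kbtbd4 (SE 0.13), -0.82 for Dusp3 (SE 0.14) and -1.26 for Uck1 (SE 0.15). No test is given for these differences, which chose the genes. Within library numbers 1 to 14, which hold Bcl10+/- culture 1 beside both Bcl10-/- cultures, that culture's log2 changes were 0.15, 0.08, 0.01 and 0.60 for Lsm12, Kbtbd4, Dusp3 and Uck1. Without the unstimulated library of Bcl10-/- culture 1, the Bcl10-/- changes were -1.32, -0.93, -0.87 and -0.82 for the same genes. The part of library number or Bcl10 level in these values was not tested.

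Measured levels rested on many fragments. From the estimated depths and the summed exon lengths, treated and unstimulated libraries held roughly 474 to 1992 fragments for Lsm12, 398 to 1540 for Dusp3, 154 to 512 for Uck1 and 108 to 423 for Kbtbd4. Counting error alone at the smallest of these is 4.59%, 5.01%, 8.06% and 9.62% of the value for the same genes. These are approximate, since the transcripts counted were not given, and cover counting error only.

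Bcl10-/- cultures were also set against Bcl10+/- cultures after averaging both conditions. The average includes the treated Bcl10-/- libraries on which the choice rested, so the members' values are given as a description, with no test. In unstimulated cells Lsm12, Kbtbd4 and Uck1 were higher in Bcl10-/- libraries. The log2 difference was -0.54 for Lsm12 (SE 0.11), -0.37 for Kbtbd4 (SE 0.10), -0.56 for Dusp3 (SE 0.10) and -0.10 for Uck1 (SE 0.10). By limma with 2 against 3 cultures, 0 of all 12054 genes passed (0%), with 581 at an unadjusted p under 0.05 (4.82%). On the log2 scale both Bcl10-/- cultures lay below all 3 Bcl10+/- cultures for each of the 4, as for 13.7% of tested genes. For Uck1 that order did not hold for mean FPKM, which was 5.33 in Bcl10-/- culture 2 and 5.29 in Bcl10+/- culture 1. Without Bcl10+/- culture 1, 209 genes passed (1.73%), with 0.854% of tested genes lower and 0.879% higher. The members' log2 differences, again a description with no test, were then -0.49 for Lsm12, -0.39 for Kbtbd4, -0.58 for Dusp3 and -0.13 for Uck1.

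**Figure D3:**
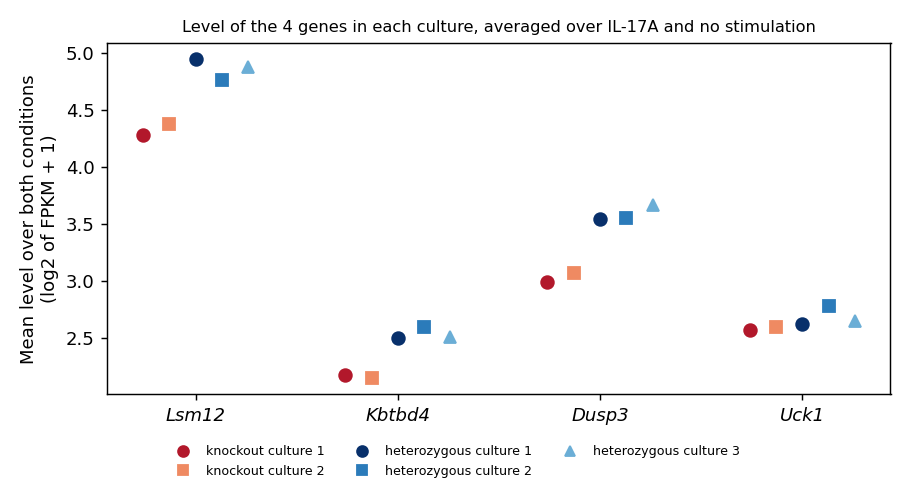
Mean level over IL-17A and no stimulation of each gene in each culture, on the log2(FPKM + 1) scale (the axis does not start at 0). Each point is a culture. On this scale both knockout cultures lie below the 3 heterozygous cultures, as for 13.7% of tested genes, though for Uck1 not in mean FPKM. The means include the treated knockout libraries on which the choice of genes rested. The log2 differences are -0.54, -0.37, -0.56 and -0.10 from left to right.

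The genes whose profile over the 10 libraries was most like each member were sought by the root mean square distance between standardised log2(FPKM + 1) profiles, where 0 means the same shape. Lsm12, Kbtbd4 and Dusp3 were each other's 2 nearest genes, at 0.268 (Lsm12 and Kbtbd4), 0.293 (Lsm12 and Dusp3) and 0.349 (Kbtbd4 and Dusp3). The choice of genes by their shared contrast favours this. The third nearest was Zkscan5, a zinc finger gene, for Lsm12 (0.442), Snord100 for Kbtbd4 (0.4004) and Chuk, the IkB kinase alpha gene, for Dusp3 (0.406). Chuk had group means of 12.1 FPKM in treated and 15.0 FPKM in unstimulated Bcl10-/- cells, and 16.0 and 15.7 FPKM in treated and unstimulated Bcl10+/- cells. Uck1 was farther from the other members, at 0.673 to 0.871. Its nearest genes were the processed pseudogene Gm12858 (0.457), ENSMUSG00000091964, for which no symbol was matched (0.497), and Cldnd1, a claudin-domain gene (0.556). Gm12858 shared the opposite directions, with log2 changes of -0.82 and -0.48 in Bcl10-/- cultures 1 and 2 and 0.83, 0.65 and 0.33 in Bcl10+/- cultures 1, 2 and 3.

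Neighbouring genes outside the set did not share the low treated values. Lsm12 and Dusp3 are among each other's nearest 3 tested genes and, as members, are not counted here. Over the 20 flanking genes, taken as the nearest 3 tested genes on each side of a member and not members themselves, the IL-17A change in Bcl10-/- cells ran from -0.20 to 0.18, with a median of 0.01. By limma 0 of the 20 passed in Bcl10-/- cells (0 at an unadjusted p under 0.05). Of all tested genes 0.0249% passed there in either direction, and 1.46% were at an unadjusted p under 0.05. Between Dusp3 and Lsm12 the annotation holds 11 genes, and 2 of them were tested. Those were the pseudogene Gm11585 (log2 -0.20 in Bcl10-/- cells) and Tmem101, a transmembrane protein gene (0.11). G6pc3, a glucose-6-phosphatase gene 4323 bp beyond Lsm12, was at 0.31 and -0.17 in Bcl10-/- cultures 1 and 2. In Bcl10+/- cells the flanking genes ran from -0.21 to 0.22 apart from the pseudogene Gm13611 next to Uck1, which was at 1.94 because 1 unstimulated library, that of culture 2, had 1.26 FPKM against 79.2 to 131 FPKM in the other libraries.

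Gene models that overlap members limit what their FPKM can separate, because the sources used here do not state how strand was handled. Kbtbd4 shares 88 exonic bases with Ndufs3, a subunit gene of respiratory complex I, and 1657 exonic bases, 52.8% of its exon length, with Ptpmt1, a mitochondrial phosphatase gene on the other strand. Ptpmt1 averaged 13.5 FPKM in treated and 11.8 FPKM in unstimulated Bcl10-/- cells, and 17.4 and 16.1 FPKM in treated and unstimulated Bcl10+/- cells. Its log2 change in Bcl10-/- cells was 0.18 (limma adjusted p = 1.0), opposite in sign to that of Kbtbd4. Ndufs3 was 18.2 to 20.4 FPKM in every library. Uck1 shares 4 exonic bases with Pomt1, and Dusp3 shares 604 with Gm20659, which is listed at 0 in all 10 libraries. Lsm12 overlaps no other gene model.

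**Figure D4:**
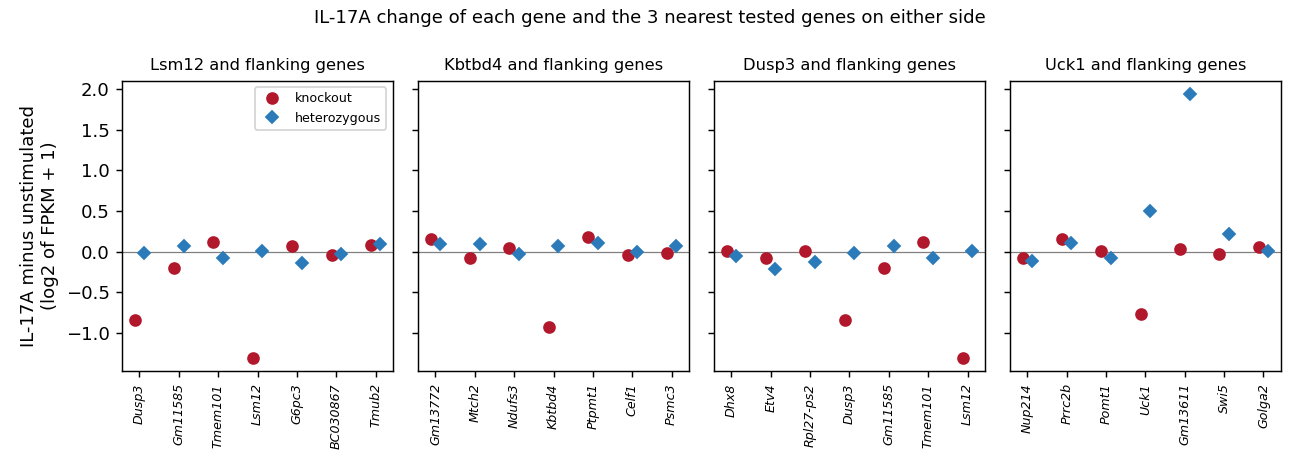
IL-17A-treated minus unstimulated log2(FPKM + 1) for each member and the 3 nearest tested genes on either side, in chromosomal order, from the group means of knockout (circles) and heterozygous (diamonds) libraries. The members lie at -1.30 to -0.76 in knockout, while the 20 other genes lie between -0.20 and 0.18; the heterozygous value of 1.94 is Gm13611.

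Relatives and partners of the 4 proteins were taken from 7 lists, and by limma 0 passed in any of the 3 comparisons. In the genotype comparison 5 of 112 listed genes tested (4.46%) were at an unadjusted p under 0.05, against 4.82% of all tested genes. Across all tested genes the median log2 change was -0.000527 in Bcl10-/- and -0.01 in Bcl10+/- cells. For Lsm12, 20 other LSm and Sm genes, which bind RNA in decay and splicing complexes, had medians of 0.05 in Bcl10-/- and -0.0047 in Bcl10+/- cells. By limma 0 of 20 passed in Bcl10-/- cells, with 1 at an unadjusted p under 0.05, against 1.46% of all tested genes. That gene was Lsm3, a ring subunit, with 1.22 ± 0.426 FPKM in treated and 2.67 ± 0.933 FPKM in unstimulated Bcl10-/- cells (SD, n = 2 each). Its log2 changes were -1.17 and -0.26 in Bcl10-/- cultures 1 and 2, a spread much wider than that of Lsm12. Lsm5 was at 0.44 and 0.07 in Bcl10-/- cultures 1 and 2. The 6 LSM12 partner genes had a median of 0.04 in Bcl10-/- cells, with Atxn2, the ataxin-2 gene, at -0.09 and the NAADP-regulated channel gene Tpcn2 at 0.15, the mean of 0.29 and 0.01 in Bcl10-/- cultures 1 and 2.

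For Kbtbd4, 25 of 29 listed CUL3 ligase and BTB-Kelch genes were tested. Their median change was 0.01 in Bcl10-/- and 0.02 in Bcl10+/- cells, with a range of -0.12 to 0.13 in Bcl10-/- cells, where the relative Kbtbd8 was lowest and Klhl21 highest. The 9 CoREST genes had medians of -0.03 in both genotypes, and the corepressor gene Rcor2 (0.18) and the subunit gene Phf21a (-0.14) had the largest mean changes in Bcl10-/- cells without passing. Phf21a was at 0.19 and -0.48 in Bcl10-/- cultures 1 and 2, opposite in sign. By limma 0 genes of either list passed in the IL-17A comparisons (0 at an unadjusted p under 0.05). Of all tested genes only 1.46% in Bcl10-/- and 1.34% in Bcl10+/- cells were under that p, so few would be expected in lists of this size.

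For Dusp3, 16 of 20 listed dual-specificity phosphatases were tested, with medians of 0.03 in Bcl10-/- and 0.06 in Bcl10+/- cells. Dusp4, a nuclear MAP kinase phosphatase, was at 0.30 in Bcl10-/- cells and Dusp12 at 0.21, both opposite in sign to Dusp3 and neither past the test. The 14 tested MAP kinase pathway genes had medians of 0.02 and -0.01, with the ERK kinase gene Map2k2 at 0.27 and the p38 gene Mapk14 at -0.26 in Bcl10-/- cells. Both rest on a single culture each, with Map2k2 at 0.56 and -0.01 and Mapk14 at 0.18 and -0.70 in Bcl10-/- cultures 1 and 2. For Uck1, 22 of 24 listed pyrimidine genes were tested, with medians of -0.01 in Bcl10-/- and -0.05 in Bcl10+/- cells. The UMP-CMP kinase gene Cmpk1, which acts after UCK1, was at -0.17 in Bcl10-/- and 0.08 in Bcl10+/- cells, and the thymidylate synthase gene Tyms was at -0.15 in Bcl10-/- cells. By limma 0 genes of these 3 lists passed in the IL-17A comparisons (0 at an unadjusted p under 0.05, against 1.46% of all tested genes in Bcl10-/- and 1.34% in Bcl10+/- cells).

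**Figure D5:**
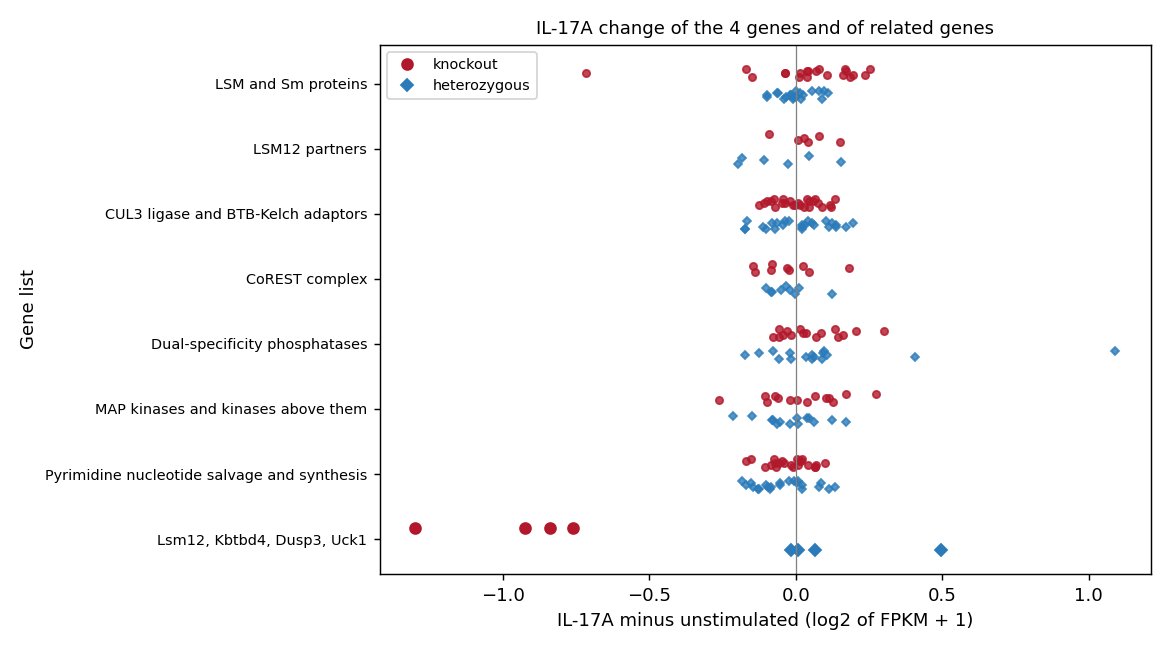
IL-17A-treated minus unstimulated log2(FPKM + 1) in knockout (circles) and heterozygous (diamonds) cells for each tested gene of the 7 lists, with the 4 members in the bottom row. The members lie at -1.30 to -0.76 in knockout, and among listed genes the lowest knockout value is that of Lsm3 (-0.71); the heterozygous value of 1.09 is Dusp7.

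Markers of other cells were low beside those of keratinocytes. In these bulk samples fewer cells of a type and less RNA per cell cannot be told apart. The summed level of 5 keratinocyte markers was 10956 to 11931 FPKM in treated and 11050 to 11105 FPKM in unstimulated Bcl10-/- cells, and 8418 to 10675 and 9042 to 12001 FPKM in treated and unstimulated Bcl10+/- cells. The 5 fibroblast markers summed to 26.0 FPKM in treated and 25.5 FPKM in unstimulated cells of Bcl10-/- culture 2, against 0.159 to 0.437 FPKM in the other 8 libraries. In Bcl10-/- culture 1, where that sum was 0.359 FPKM treated and 0.210 FPKM unstimulated, the log2 changes with IL-17A were -1.34 for Lsm12, -0.88 for Kbtbd4, -0.86 for Dusp3 and -0.67 for Uck1. The 4 melanocyte markers summed to 164 to 173 FPKM in treated and 170 to 174 FPKM in unstimulated Bcl10-/- cells, and to 184 and 190 FPKM in treated and unstimulated cells of Bcl10+/- culture 1. In Bcl10+/- cultures 2 and 3 that sum was 307 to 393 FPKM, so it divides the libraries as the library numbers and the Bcl10 level do. Of 5 leukocyte markers 4 were listed at 0 in every library, and the fifth, the macrophage gene Cd68, was at 5.10 to 10.5 FPKM. The 3 endothelial markers summed to 4.39 to 6.04 FPKM. The part of these levels in the results was not tested.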

How the data were processed

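The deposited table gives FPKM for 10 libraries and 37991 Ensembl identifiers. Poly(A) RNA from an input of 100 ng was prepared with a NEBNext Ultra II kit, per the labels' protocols. The submitters' processing notes name HISAT2, SAMtools, StringTie, DESeq2 and mm10; their versions and roles, the strand setting and the annotation release were not found in those notes or in the file header. Identifiers were matched to GENCODE M21 (GRCm38, the assembly of mm10): 32938 had a match. No count model was run, since FPKM are not counts.

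The 12054 genes averaging 1 FPKM or more were tested on log2(FPKM + 1) with limma 3.58.1 in R 4.3.3, with a mean-variance trend, two-sided, with Benjamini-Hochberg adjustment over all tested genes and a threshold of 0.05. This scale understates changes of low genes. IL-17A contrasts came from a fit with 4 group means. The genotype comparison used the mean of both libraries of each culture. Its test is reported over all genes, and for the members, whose low values enter it, only the differences are given. The fits were tested on simulated data. Some listed values may be failed estimates, since Gapdh is at only 0.278 to 4.58 FPKM.

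Library depth was inferred from the spacing of small values (up to 3 steps) in genes with a single exon and a length between 300 and 3000 bp. Between 49.1% and 54.8% of these fell no more than 0.05 from a whole step, where an even spread would give 10%. At these depths 3 fragments on 1 kb are worth 0.0595 to 0.188 FPKM, for counting error only.

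Named genes were the members, the next genes by p, the nearest profiles, overlapping and flanking genes, and the 2 genes of each list with the largest change in Bcl10-/- cells; Dusp7, Gm13611, Krt5 and Cd68 were chosen after their values were seen. The members and lists were chosen with earlier results of these data known. Same-numbered libraries of a genotype deviated together (0.227 in Bcl10-/-, a single value, and 0.607, 0.488 and 0.137 in Bcl10+/- cultures 1, 2 and 3) and were taken as pairs in the blocked fits and per-culture changes. Alternatives covered the pseudocount, filter, scaling, trend, culture block and omissions.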

Additional observations from a re-analysis of the deposited data

Results flagged for a closer look

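In Kbtbd4 and Uck1 every Bcl10-/- culture moved one way with IL-17A and every Bcl10+/- culture the other. The difference in log2 change, Bcl10-/- minus Bcl10+/-, was -0.99 for Kbtbd4 and -1.26 for Uck1. These differences were not tested, because they chose the genes, and 3.19% of the 12054 tested genes showed the same signs. For Kbtbd4 the Bcl10+/- changes were small, at 0.08, 0.11 and 0.02 in cultures 1, 2 and 3.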

How the results depend on the processing

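The IL-17A changes of the members kept their sign in Bcl10-/- cells under each alternative run. Over these the log2 change was -1.37 to -1.23 for Lsm12, -1.17 to -0.88 for Kbtbd4, -0.94 to -0.79 for Dusp3 and -0.90 to -0.67 for Uck1. In Bcl10+/- cells Uck1 stayed at 0.44 to 0.58 and Kbtbd4 at 0.02 to 0.09, while Lsm12 (-0.07 to 0.08) and Dusp3 (-0.08 to 0.04) took both signs. Over all genes, the count that passed for IL-17A was 3 in Bcl10-/- cells, but 5 without a filter, 1 with TPM scaling and 0 to 5 when a culture was left out (0 without Bcl10+/- culture 3, 5 without Bcl10-/- culture 2). In Bcl10+/- cells it was 1, but 2 with a pseudocount of 0.1 or TPM scaling and 0 to 2 when a culture was left out (2 without Bcl10+/- culture 2, 0 without any other). With culture as a block, limma called 0 genes in both (607 and 835 at an unadjusted p under 0.05), so Lsm12 (adjusted p = 0.0689) and Kbtbd4 (0.0918) lost their calls, with the log2 changes as they were, for example -1.30 for Lsm12. The genotype comparison called 0 genes, but 0 to 209 when a culture was left out: 11 without Bcl10-/- culture 1, 4 without Bcl10-/- culture 2 and 209 without Bcl10+/- culture 1. With 1 culture left in Bcl10-/-, that culture is assumed to vary like the others. The random culture block also called 0 genes there. The cause of these shifts was not tested. Depth limits Kbtbd4 most, at about 108 fragments in its lowest library.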
